A study of Mus musculus with 24 samples.

Results

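The RNA of 34 genes of the endoplasmic reticulum (ER) was followed in CD8+ T cells of the mouse through the first 24 h of activation. The genes encode the folding, translocation and degradation machinery of the ER and the regulators of its unfolded protein response. They were taken as a list of gene symbols, and all 34 were found among the 23420 genes measured in every library and passed the filter on low counts that left 11470 genes for testing. The libraries came from CD8+ T cells bearing the OT-I T cell receptor transgene, purified with CD8 microbeads from spleen and lymph nodes and sorted to 1000 cells each for the full-length Smart-seq2 protocol. Cells were taken before plating (0 h) and after 4, 8 and 24 h on plates coated with antibodies to CD3 and CD28 at 1 ug/mL, with interleukin-2 at 6 ng/mL. No library came from cells plated without antibodies or without interleukin-2. In changes from 0 h, activation, interleukin-2 and time in culture therefore cannot be told apart. The cKO cells came from 3 mice with the E8i-cre transgene, 2 floxed Tcf7 alleles (Tcf7FL/FL) and OTI. The WT cells came from 3 mice with the same floxed alleles and OTI and without cre (E8i-cre-), so presence of cre and loss of Tcf7 cannot be told apart. Tcf7 encodes the transcription factor TCF1, and E8i directs cre to CD8+ T cells. Each of the 6 mice gave 1 library at each of the 4 times, which makes 8 groups of 3 and 24 libraries. The p-values rest on the spread between mice within a group, pooled over the 8 groups in 1 fit. A comparison of times within a genotype holds the same 3 mice on both sides, and the main fit does not pair them.

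Proteins bound for the cell surface or for secretion enter the ER through the Sec61 channel, lose their signal peptide to signal peptidase, and are folded by chaperones, disulfide isomerases and lectins. Proteins that fail to fold are returned to the cytosol and degraded. When unfolded proteins build up, the membrane sensors IRE1 (encoded by Ern1), ATF6 and PERK start the unfolded protein response: IRE1 splices the mRNA of Xbp1 so that it encodes an active factor, and the released part of ATF6 enters the nucleus. Both factors bind ER stress response elements in promoters of chaperone genes, and XBP1 is best known among lymphocytes for the secretory expansion of plasma cells.

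The promoters of 10 members carry such elements, and the sequences below are shown because members whose RNA rose and members whose RNA fell both carry them. RefSeq promoter windows of the GRCm38.p6 assembly (300 bases, from 250 before to 50 after the annotated start) were matched for 28 members. The ER stress response element (ERSE: CCAAT, any 9 bases, CCACG, read on both strands) was present in 8 of these 28 windows (28.6%), against 39 of all 32851 windows of the table (0.119%). ERSE-II (ATTGG, any 1 base, CCACG) was present in 2 of 28 (7.14%), against 12 of all windows (0.0365%). Such elements are known from promoters of chaperone genes, and the members include such genes. Their higher share is therefore no independent finding and was not tested. The shared part CCACG alone, which every ERSE and ERSE-II match includes, was present in 22 of 28 (78.6%), against 10765 of all windows (32.8%). The core of another element of the response (TGACG directly followed by TGG, whose reverse strand also holds CCACG) was in 0 of 28, against 222 of all windows (0.676%). The whole window of Hspa5, which encodes the central ER chaperone BiP, is given first as an example, with its ERSE in capitals (chr2:34771840-34772139, plus strand).
Hspa5: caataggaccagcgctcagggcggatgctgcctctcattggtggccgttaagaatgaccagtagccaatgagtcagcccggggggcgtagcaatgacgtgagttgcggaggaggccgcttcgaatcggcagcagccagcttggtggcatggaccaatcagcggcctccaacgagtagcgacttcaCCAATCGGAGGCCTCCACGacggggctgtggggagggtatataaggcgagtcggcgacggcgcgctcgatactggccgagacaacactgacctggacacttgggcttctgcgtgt
The next 6 sequences show a match, in capitals, with 20 bases on each side, read along the strand of the gene. Hsp90b1, Creld2, Herpud1 and Dnajb11 were higher at 24 h than at 0 h, and Dnajc3 and Syvn1 were lower, in both genotypes. They lie at chr10:86705618-86705676 (minus strand, the first of 2 matches), chr15:88819500-88819558, chr8:94386357-94386407, chr16:22857832-22857882, chr14:118937807-118937865 and chr19:6046512-6046570 (plus strand for these 5), in that order.
Hsp90b1 ERSE: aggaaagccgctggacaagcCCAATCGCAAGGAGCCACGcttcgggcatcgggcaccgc
Creld2 ERSE: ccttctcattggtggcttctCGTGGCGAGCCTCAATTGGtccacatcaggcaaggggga
Herpud1 ERSE-II: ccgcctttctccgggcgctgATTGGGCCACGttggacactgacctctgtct
Dnajb11 ERSE-II: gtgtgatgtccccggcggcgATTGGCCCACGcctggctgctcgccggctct
Dnajc3 ERSE: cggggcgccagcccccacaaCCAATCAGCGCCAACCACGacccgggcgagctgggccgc
Syvn1 ERSE: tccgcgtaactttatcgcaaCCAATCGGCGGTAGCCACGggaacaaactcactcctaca
The Creld2 element reads in reverse, as do those of Calr and the second of Hsp90b1, and Canx and Pdia6 complete the 8 genes with an ERSE. The Dnajb11 element lies 8 to 18 bases after the RefSeq start of its window, and all others lie before theirs. In the GENCODE annotation used for gene positions, Hspa5 begins further upstream, at 34771970. By that annotation its ERSE lies after the start. Atf6, Hyou1, Manf, Sec61a1, Ssr2 and Spcs3 were not matched to a window. A match describes these letters only and does not show that a factor binds there.

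**Figure D1:**
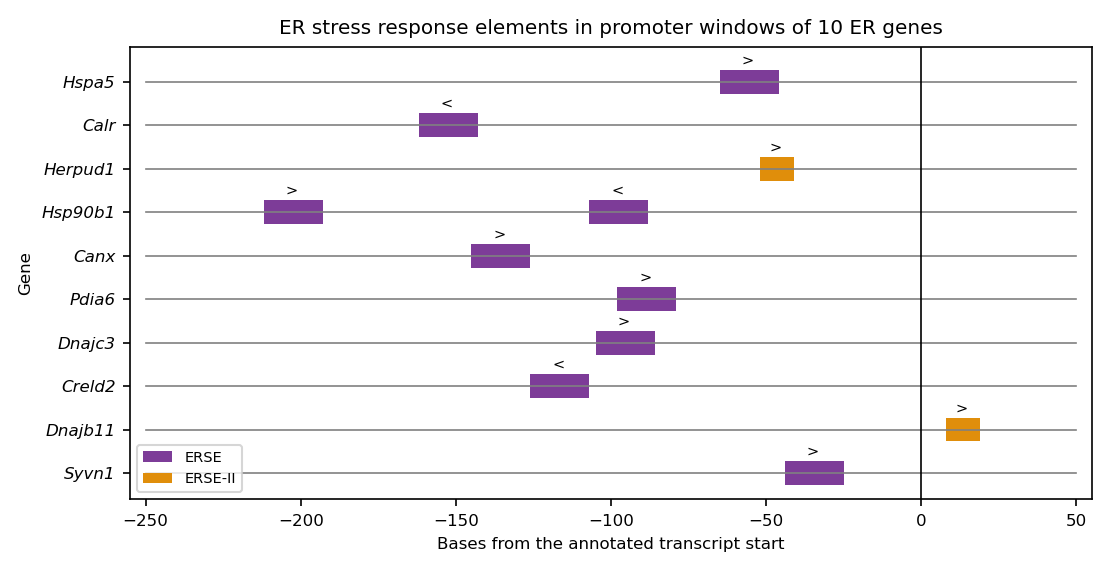
Position of each ERSE (purple) and ERSE-II (orange) in the 300-base promoter windows of the 10 genes with a match. The horizontal axis is the distance in bases from the annotated transcript start, and > or < marks a match on the same or the opposite strand. Hsp90b1 has 2 matches, and the Dnajb11 match alone lies after the RefSeq start.

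Libraries held 5846265 to 9700397 expected counts and 13694 to 17214 genes above 0. The ribosomal precursor Rn45s took 16.2 to 20.6% of counts in the libraries of 0 and 4 h. At 8 h it took 14.2 to 17.2%, and at 24 h 7.39 to 9.54%. It thus moved with time, and the fit without it is among the alternatives. The summed level of 7 CD8 T cell markers was 1420 to 1550 TPM in cKO and 1340 to 1390 TPM in WT at 24 h, against 7260 to 7560 TPM in cKO and 6540 to 7040 TPM in WT at 0 h. TPM is the number of transcripts of a gene, corrected for length and expressed per fixed number of transcripts. In a bulk sample, fewer cells of a type, less of its RNA per cell and more RNA of other genes cannot be told apart. The rises and falls given below are therefore changes in the share of a library's RNA, and RNA per cell was not measured. The sum of 5 plasma cell markers lay between 0.5 and 5.44 TPM, with Igj, Tnfrsf17 and Mzb1 at or near 0. At 0 h this sum was 0.87 to 1.85 TPM in cKO and 1.07 to 1.79 TPM in WT. At 24 h it was higher, at 3.87 to 5.44 TPM in cKO and 4.03 to 4.89 TPM in WT. The other markers of the list, Sdc1 and Derl3, reached up to 4.13 and 1.81 TPM. The sum of 5 B cell markers was at most 18.2 TPM in the libraries of the later times, against 41.5 to 52.7 TPM in cKO and 32.5 to 36.6 TPM in WT at 0 h. Gene-level Tcf7 averaged 695, 262, 103 and 37.2 TPM in cKO at 0, 4, 8 and 24 h, and 539, 192, 73.7 and 69.5 TPM in WT. These values pool the floxed part with the rest of the gene, so they do not check the deletion, and cKO and WT are used here as labelled. Principal components set 3 libraries apart from the rest of their time: cKO mouse 2 and WT mouse 5 at 8 h, and cKO mouse 3 at 4 h.

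The 34 genes together took 0.33 to 0.626% of all TPM, and their summed level was higher at 4, 8 and 24 h than at 0 h in both genotypes. In cKO mice the sum averaged 3634 TPM at 0 h, 4392 TPM at 4 h, 5944 TPM at 8 h and 5678 TPM at 24 h. In WT mice it averaged 3434, 4445, 5758 and 5493 TPM at the same times. Within each genotype the libraries of 4, 8 and 24 h all lay above those of 0 h (at 4 h from 4323 TPM in cKO and 4339 TPM in WT, against up to 3733 TPM in cKO and 3619 TPM in WT at 0 h). Hspa5 had the highest group mean (1070 TPM at 8 h in both genotypes) and Ern1 the lowest. By group means 15 members peaked at 8 h, 12 at 24 h, 4 at 4 h and 3 at 0 h in cKO. In WT 16 peaked at 8 h, 11 at 24 h, 4 at 4 h and 3 at 0 h, and 26 of the 34 had the same peak time in both genotypes.

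**Figure D2:**
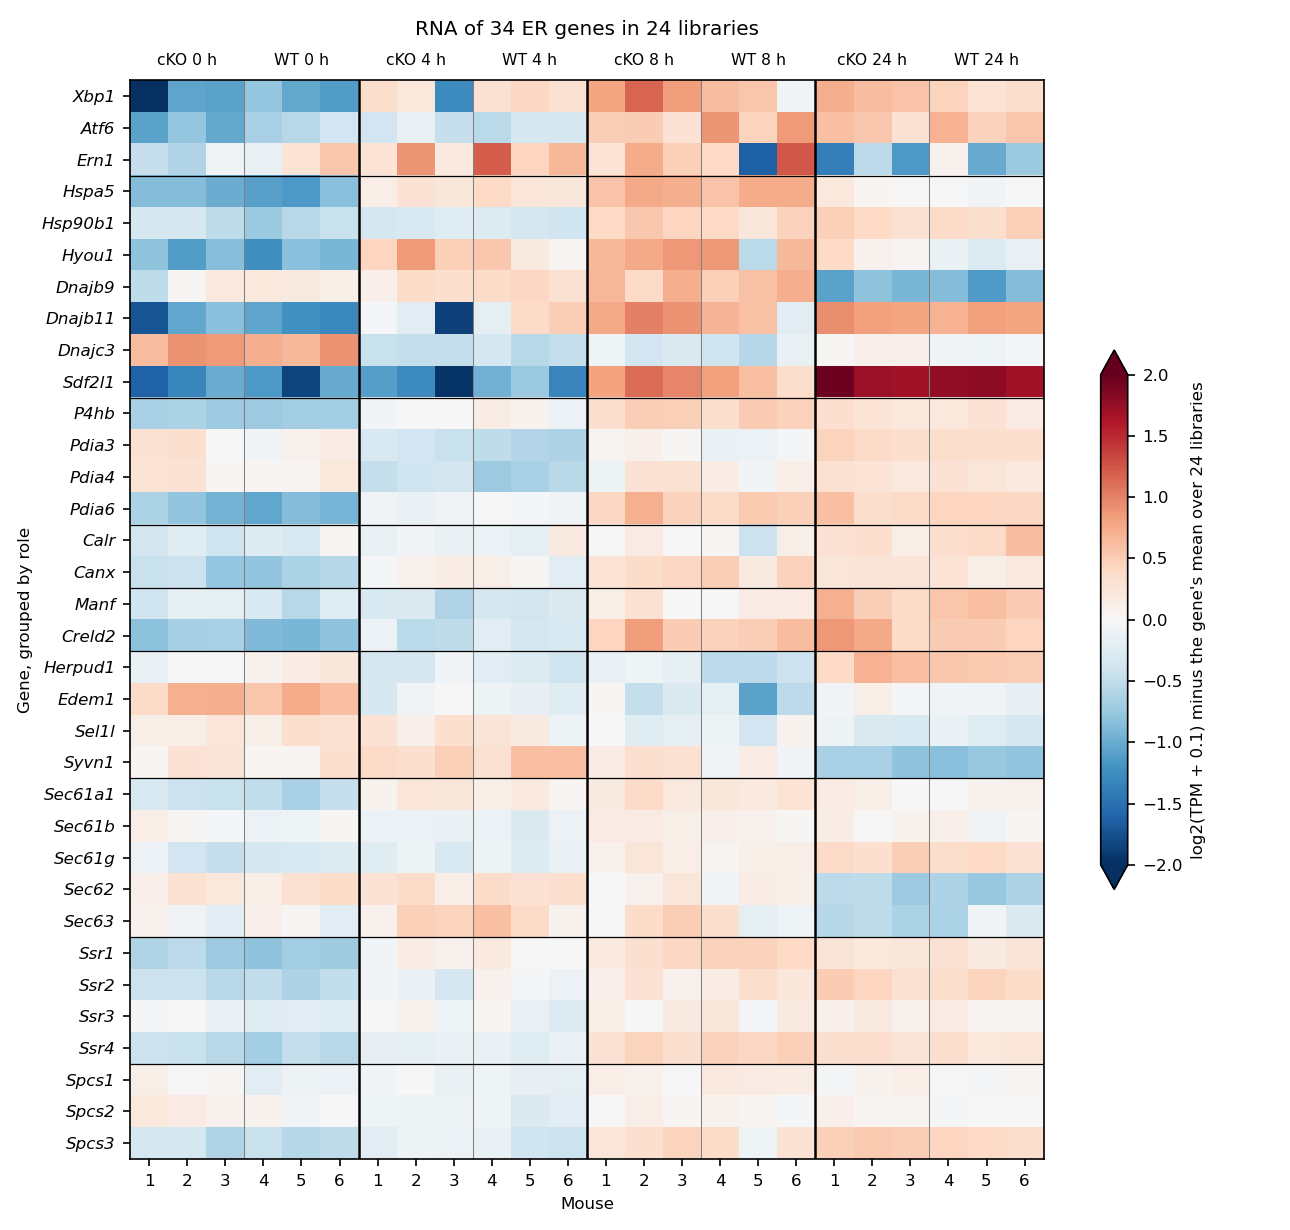
Level of each of the 34 genes (rows, grouped by role) in each of the 24 libraries (columns, by time, then cKO and WT, then mouse), as log2(TPM + 0.1) minus the mean of the gene over all libraries, with colours capped at 2 log2 units. Most rows turn from blue at 0 h to red at 8 and 24 h. Dnajc3 and Edem1 are highest at 0 h, and Dnajb9, Syvn1 and Sec62 are lowest at 24 h.

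Each step was tested with edgeR's quasi-likelihood test across all 11470 genes, and a gene was called at a Benjamini-Hochberg adjusted p under 0.05. From 0 to 4 h 16 members rose and 4 fell in cKO, when 29.6% of all genes rose and 27.6% fell. In WT 17 rose and 5 fell, against 30% and 29.1% of all genes. From 4 to 8 h 21 rose and 1 fell in cKO (20.8% and 19.6% of all genes), and 20 rose and 2 fell in WT (21.9% and 19.7%). From 8 to 24 h 5 rose and 8 fell in cKO (25.2% and 32.1% of all genes), and 6 rose and 12 fell in WT (24.7% and 34.1%). Over the whole course, 24 against 0 h, 22 rose and 7 fell in cKO (37.3% and 39% of all genes), and 22 rose and 6 fell in WT (36.9% and 40.1%). The median log2 fold change of the members over 24 h was 0.74 in cKO and 0.67 in WT, beside -0.07 and -0.08 over all genes tested. Successive steps share the libraries of the time between them, so their directions are not independent of each other. Without the 4 h library of mouse 3, 18 members rose and 0 fell from 4 to 8 h in cKO, and without the 8 h libraries of mice 2 and 5, 17 rose and 2 fell at that step in WT. Leaving out the 4 h library of mouse 3 added the cKO rise of Dnajb11 from 0 to 4 h and the WT rise of Spcs1 over 24 h. It removed the cKO calls of Dnajb9, Dnajc3, Sel1l and Ssr2 from 4 to 8 h and of Sec61a1 from 8 to 24 h. Leaving out the 8 h libraries of mice 2 and 5 removed Dnajc3 and Xbp1 from the cKO calls from 4 to 8 h, and Edem1, Sec61b, Sec61g, Spcs2 and Ssr2 from those of WT, to which it added Hyou1 and Sec62. From 8 to 24 h it removed Dnajc3 and Sec61a1 and added Sec61g and Ssr2 in cKO, and removed Edem1 and Spcs1 and added Ern1 in WT. It also added Spcs2 in cKO from 0 to 4 h and Spcs1 in WT over 24 h.

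The split of the last step depends on the scaling. Scaled by library size alone, which shifted the median of all genes by 0.12 in cKO and 0.19 in WT at this step and by -0.17 and -0.16 at the first, 9 members rose and 6 fell in cKO from 8 to 24 h, and 11 rose and 5 fell in WT. With DESeq2's size factors it was 7 and 7 in each genotype. At the first step the split by library size alone was 11 higher and 8 lower in cKO and 12 higher and 7 lower in WT. No member called in a step had the opposite sign of change under either scaling.

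**Figure D3:**
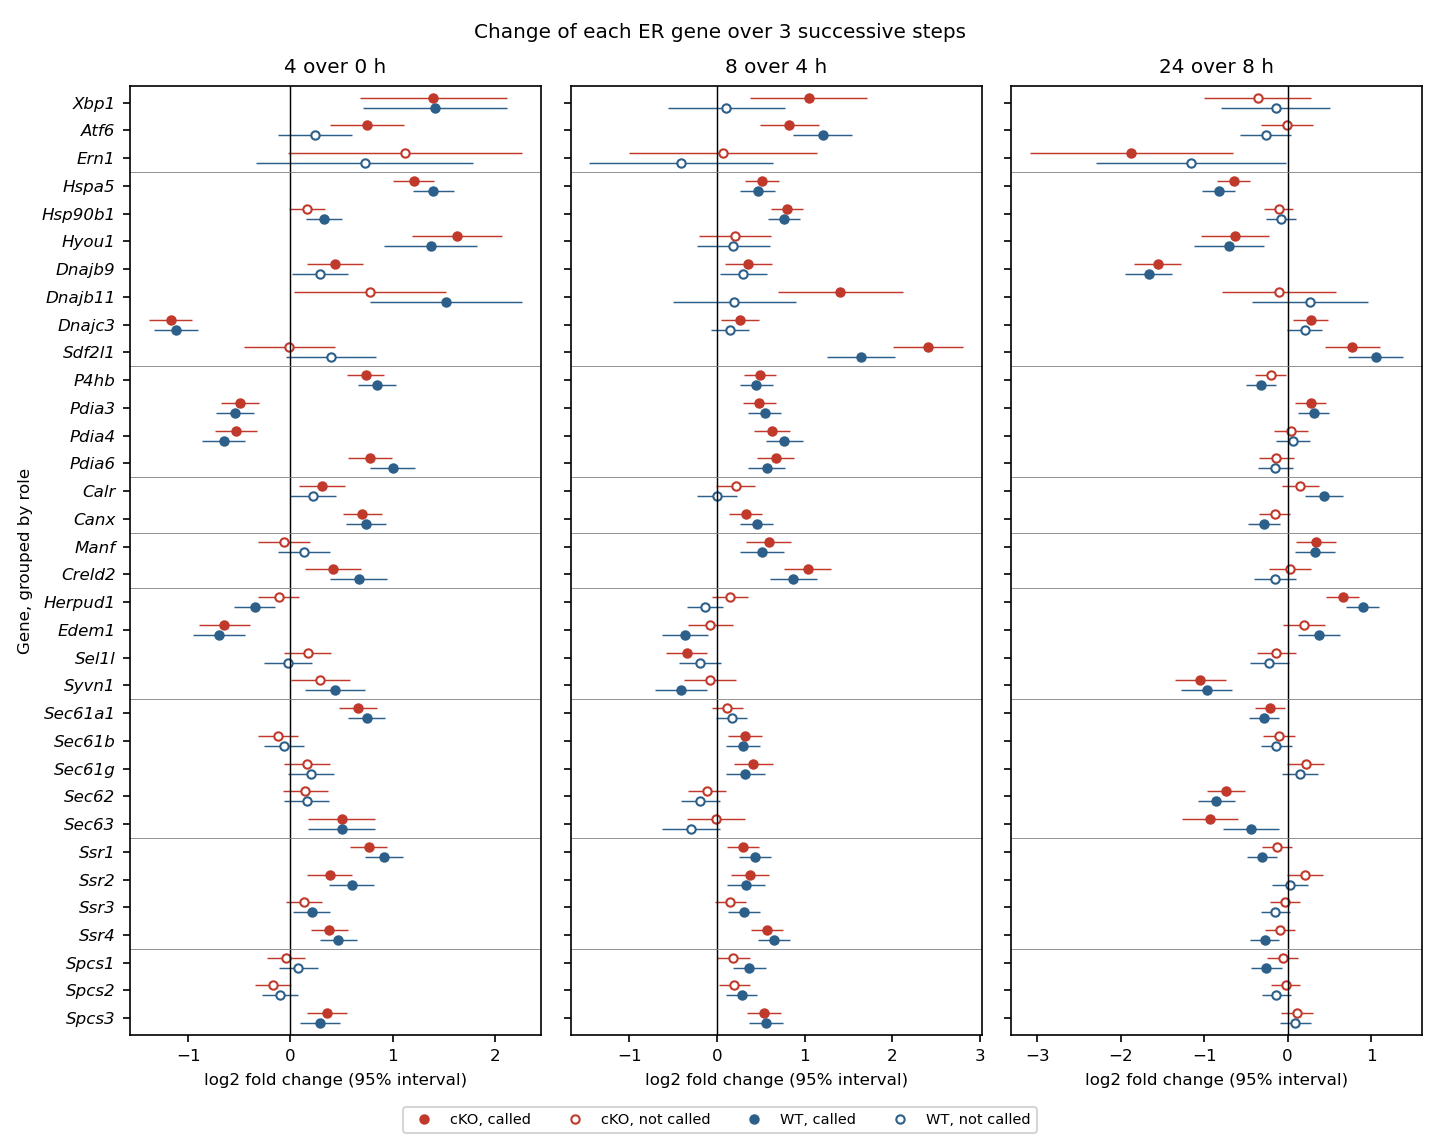
Log2 fold change of each gene with its 95% interval from 0 to 4 h, 4 to 8 h and 8 to 24 h, in cKO (red, upper) and WT (blue, lower). Filled points were called at an adjusted p under 0.05. The first 2 panels hold more filled points right of 0 than left of it, and in the third Dnajb9, Syvn1 and Sec62 are well left of 0 and Sdf2l1 and Herpud1 right of it, in both genotypes.

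Among the sensors and their factors, Xbp1 and Atf6 were higher at 24 h than at 0 h in both genotypes, and Ern1 was not called over that span. Xbp1 (chromosome 11, 5520659 to 5525893, plus strand, GRCm38) was at 9.52, 20.5 and 20.2 TPM (0 h), 54.6, 49.5 and 17.6 (4 h), 73.6, 95.8 and 76.6 (8 h) and 70.6, 65.3 and 63.2 (24 h) in cKO mice 1, 2 and 3. WT mice 4, 5 and 6 had Xbp1 at 24.9, 21 and 19.6 TPM (0 h), 52.7, 57.2 and 52.7 (4 h), 65.3, 62.5 and 40.9 (8 h) and 58.1, 51.6 and 54.7 (24 h). All libraries of 8 and 24 h lay above those of 0 h, and the 4 h library of mouse 3 lay within the range of the 0 h libraries, as did none of the other 4 h libraries. Xbp1 rose over 24 h 4.23-fold in cKO (log2 fold change 2.08, SE 0.33, adjusted p = 2.28e-05) and 2.6-fold in WT (log2 fold change 1.38, SE 0.33, adjusted p = 0.0011). In WT most of this lay in the first 4 h (log2 fold change 1.41, SE 0.33, adjusted p = 0.00155). In cKO that step was also called (log2 fold change 1.40, SE 0.34, adjusted p = 0.00204), but not without mouse 1, which had the lowest 0 h level, nor in a fit of these 2 groups alone (adjusted p up to 0.115). Xbp1 rose further in cKO from 4 to 8 h (log2 fold change 1.04, SE 0.31, adjusted p = 0.0135), a call lost without mouse 2, without the 8 h libraries of mice 2 and 5 and in a fit of these 2 groups alone (adjusted p up to 0.176). The deposited rows pool the spliced and unspliced Xbp1 transcripts, so splicing by IRE1 is not measured here.

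Atf6 (chromosome 1, 170704674 to 170867771, minus strand) was expressed at a few TPM. It was at 1.46, 1.81 and 1.51 TPM (0 h), 2.41, 2.84 and 2.28 (4 h), 4.48, 4.57 and 3.9 (8 h) and 4.85, 4.63 and 3.93 (24 h) in cKO mice. WT mice had Atf6 at 1.98, 2.12 and 2.41 TPM (0 h), 2.15, 2.52 and 2.53 (4 h), 5.91, 4.33 and 5.8 (8 h) and 5.21, 4.42 and 4.68 (24 h). All 8 and 24 h libraries of a genotype lay above all its 0 and 4 h libraries. The main rise fell between 4 and 8 h in WT (log2 fold change 1.21, SE 0.16, adjusted p = 2.3e-07), and in cKO it was called at both that step (log2 fold change 0.82, SE 0.17, adjusted p = 0.000117) and the one before (log2 fold change 0.75, SE 0.18, adjusted p = 0.000488). Ern1 (chromosome 11, 106394650 to 106487852, minus strand) was the lowest member. It was at 0.35, 0.31 and 0.49 TPM (0 h), 0.65, 1.04 and 0.61 (4 h), 0.65, 0.94 and 0.76 (8 h) and 0.14, 0.33 and 0.18 (24 h) in cKO mice. WT mice had Ern1 at 0.46, 0.65 and 0.81 TPM (0 h), 1.34, 0.74 and 0.88 (4 h), 0.72, 0.1 and 1.37 (8 h) and 0.56, 0.21 and 0.27 (24 h). In cKO the 4 and 8 h libraries lay above those of 0 and 24 h, and in WT the 8 h libraries held both the lowest and the highest value. These levels rest on 2 to 27 expected counts per library, and the fall from 8 to 24 h was called in cKO (log2 fold change -1.87, SE 0.60, adjusted p = 0.00796, and 0.0585 without mouse 3) and not in WT (log2 fold change -1.16, SE 0.56, adjusted p = 0.0735). The WT fall was called without mouse 4 (-1.74, adjusted p = 0.0482), without mouse 5, whose 8 h library held 0.1 TPM (-1.41, adjusted p = 0.044), and without the 8 h libraries of mice 2 and 5 (-1.67, adjusted p = 0.0075). The difference between the cKO and WT changes was not called.

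Of 7 chaperones and cochaperones of the ER lumen, 5 rose and 2 fell over 24 h in each genotype. They belong to the HSP70 (HSP110 included), HSP90 and DnaJ families, apart from Sdf2l1, whose protein binds a DnaJ cochaperone. Hspa5 (chromosome 2, 34771970 to 34777547, plus strand) encodes BiP, the HSP70 that binds nascent chains and holds the sensors inactive. It was at 362, 363 and 333 TPM (0 h), 723, 806 and 778 (4 h), 985, 1120 and 1090 (8 h) and 769, 683 and 660 (24 h) in cKO mice. WT mice had Hspa5 at 311, 299 and 372 TPM (0 h), 868, 783 and 774 (4 h), 987, 1110 and 1110 (8 h) and 660, 634 and 655 (24 h). No libraries of adjacent times overlapped in either genotype. Hspa5 rose from 0 to 4 h 2.31-fold in cKO (log2 fold change 1.21, SE 0.10, adjusted p = 1.34e-12) and 2.63-fold in WT (log2 fold change 1.40, SE 0.10, adjusted p = 3.68e-14). It rose again to 8 h and fell after it (log2 fold change -0.65, SE 0.10, adjusted p = 9.05e-07 in cKO and log2 fold change -0.83, SE 0.10, adjusted p = 8.26e-09 in WT). Hyou1, an ER-resident member of the HSP110 family that exchanges nucleotide on BiP, was at 5.49, 4.37 and 5.3 TPM (0 h), 13, 17.4 and 13.4 (4 h), 15.2, 16.4 and 17.6 (8 h) and 12.7, 10.2 and 10 (24 h) in cKO mice. WT mice had Hyou1 at 4.08, 5.33 and 5.04 TPM (0 h), 14, 10.9 and 9.98 (4 h), 17.7, 6.62 and 15.2 (8 h) and 8.79, 7.95 and 8.65 (24 h). In both genotypes all later libraries lay above all 0 h libraries. The 8 h library of mouse 5 lay below 0.5 times each of the other 2 WT libraries of that time; 1.13% of 7908 genes with a mean of 5 TPM or more did so in that library. Hyou1 rose from 0 to 4 h (log2 fold change 1.63, SE 0.21, adjusted p = 3.81e-07 in cKO and log2 fold change 1.37, SE 0.22, adjusted p = 8.11e-06 in WT). Its fall from 8 to 24 h was called (log2 fold change -0.63 in cKO and -0.70 in WT), but not without mouse 2, without mouse 3 or scaled by library size alone in cKO, and not without mouse 4, without mouse 6 or with only these 2 groups fitted in WT (adjusted p up to 0.169 in cKO and 0.096 in WT over the alternatives). Hsp90b1, the HSP90 of the ER, rose mainly from 4 to 8 h, 1.74-fold in cKO (log2 fold change 0.80, SE 0.09, adjusted p = 4.11e-09) and 1.7-fold in WT (log2 fold change 0.76, SE 0.09, adjusted p = 8.57e-09), and was not called after that.

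Sdf2l1 (chromosome 16, 17130138 to 17132383, minus strand) had the largest rise of the 34 over 24 h in both genotypes. Its protein binds the DnaJ cochaperone encoded by Dnajb11 and keeps unfolded clients soluble. Sdf2l1 was at 13.1, 16.3 and 20.3 TPM (0 h), 18.7, 16.7 and 10.3 (4 h), 70.7, 88.1 and 79.4 (8 h) and 158, 134 and 129 (24 h) in cKO mice. WT mice had Sdf2l1 at 18.2, 11.2 and 20 TPM (0 h), 20.6, 24 and 16.2 (4 h), 71.3, 61.4 and 51.6 (8 h) and 139, 140 and 129 (24 h). Levels at 4 h overlapped those at 0 h, those at 8 h lay above both, and those at 24 h lay above all others. The rise over 24 h was 9.02-fold in cKO (log2 fold change 3.17, SE 0.18, adjusted p = 1.01e-15) and 8.56-fold in WT (log2 fold change 3.10, SE 0.19, adjusted p = 2.65e-15). Its partner Dnajb11 (chromosome 16, 22857845 to 22879634, plus strand) was at 26.2, 42.2 and 48.6 TPM (0 h), 85.4, 75.4 and 23.8 (4 h), 147, 175 and 163 (8 h) and 165, 154 and 150 (24 h) in cKO mice. WT mice had Dnajb11 at 42, 37.6 and 35.7 TPM (0 h), 76.8, 114 and 123 (4 h), 139, 130 and 75 (8 h) and 141, 153 and 151 (24 h). All 8 and 24 h libraries lay above the 0 h libraries. Dnajb11 rose over 24 h in both genotypes (4.24-fold in cKO and 3.96-fold in WT). The 4 h library of mouse 3 held less Dnajb11 and less Xbp1 than 0.5 times each of the other 2 cKO libraries of 4 h, as 1.15% of 7908 genes did there. With that library the step from 0 to 4 h in cKO was not called (log2 fold change 0.78, SE 0.35, adjusted p = 0.0679), and without it the log2 fold change was 1.16 with an adjusted p of 0.000778. In WT Dnajb11 rose from 0 to 4 h (log2 fold change 1.52, SE 0.35, adjusted p = 0.00124).

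Of the DnaJ genes, Dnajc3 and Dnajb9 went down over the course. Dnajc3, whose product is a BiP cochaperone also known to restrain PERK, was at 39.6, 48.4 and 46.5 TPM (0 h), 19, 18.5 and 18.5 (4 h), 24.4, 19.8 and 21.1 (8 h) and 26.2, 27.7 and 27.8 (24 h) in cKO mice. WT mice had Dnajc3 at 42.6, 40.5 and 48.3 TPM (0 h), 20.2, 17.5 and 18.5 (4 h), 19.6, 17.3 and 23.2 (8 h) and 24.8, 24.3 and 25.5 (24 h). All 0 h libraries lay above all later ones. Dnajc3 fell within 4 h to 0.444 times its 0 h level in cKO (log2 fold change -1.17, SE 0.10, adjusted p = 4.94e-12) and 0.461 times in WT (log2 fold change -1.12, SE 0.11, adjusted p = 1.79e-11). Dnajc3 is 1 of the genes with an ERSE shown above. Dnajb9, whose product binds IRE1 and holds it off, was at 22, 31.9 and 36 TPM (0 h), 33.7, 40.6 and 39.9 (4 h), 50.1, 40.9 and 52 (8 h) and 15, 18 and 16.7 (24 h) in cKO mice. WT mice had Dnajb9 at 36.4, 35.5 and 34.2 TPM (0 h), 40.7, 42 and 39 (4 h), 43.7, 47.3 and 52.2 (8 h) and 17.3, 14.3 and 17.2 (24 h). All 24 h libraries lay below all others, and the fall from 8 to 24 h was the largest of the members with a mean of at least 10 TPM: to 0.34 times the 8 h level in cKO (log2 fold change -1.56, SE 0.14, adjusted p = 8.39e-12) and 0.315 times in WT (log2 fold change -1.67, SE 0.14, adjusted p = 1.26e-12).

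**Figure D4:**
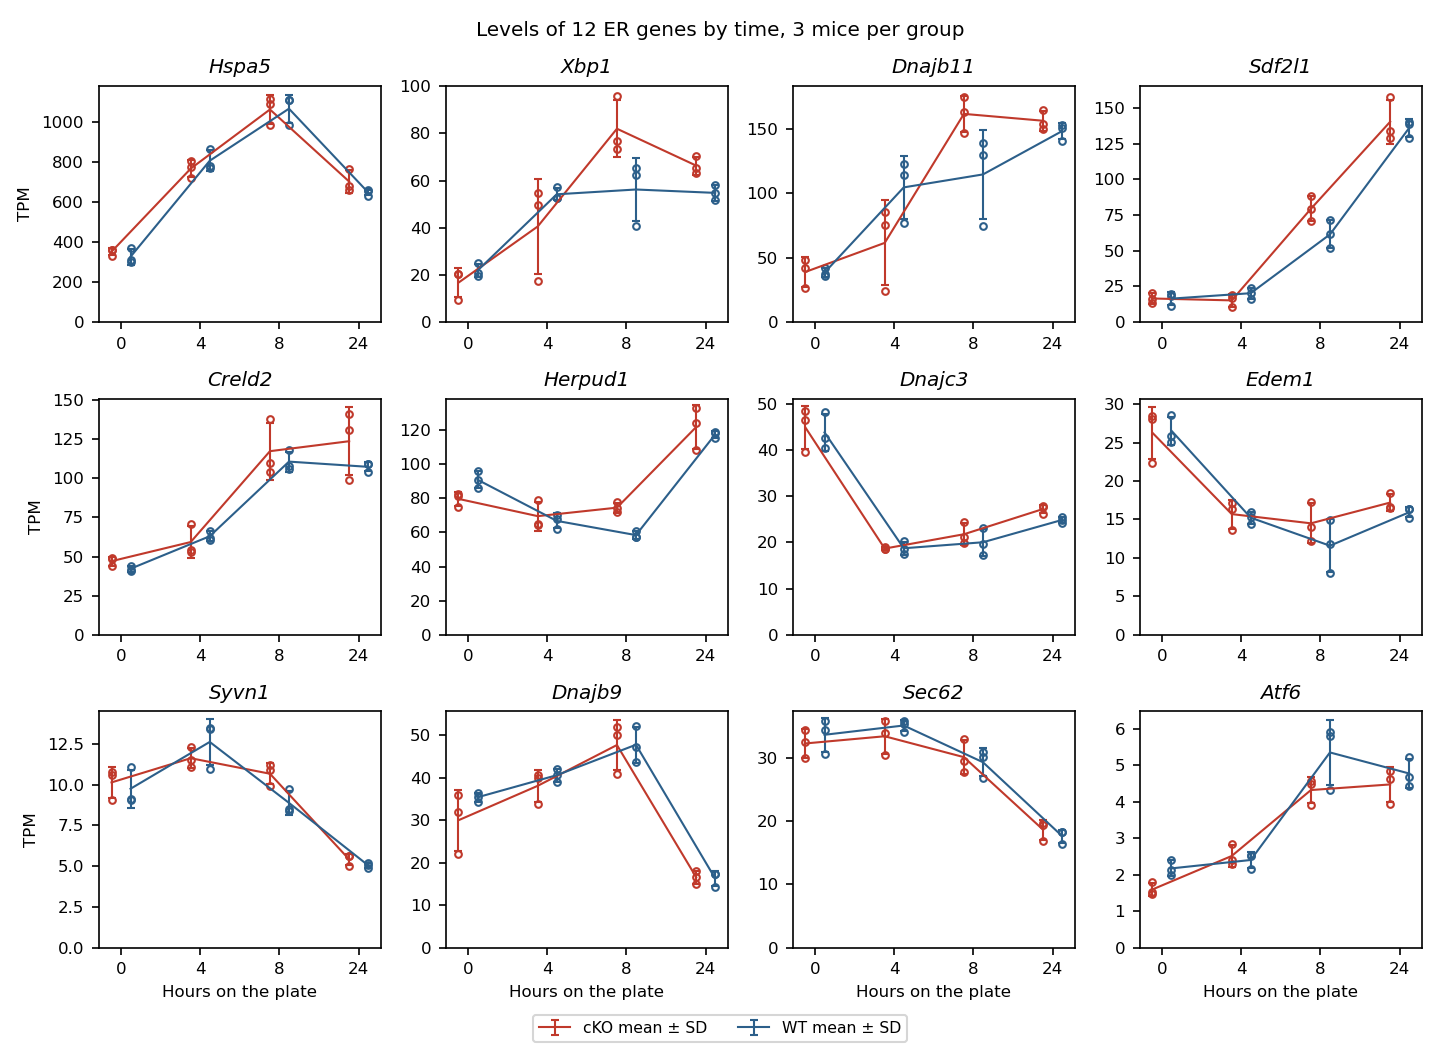
TPM of 12 of the genes at 0, 4, 8 and 24 h (evenly spaced along the axis), in cKO (red, left) and WT (blue, right). Circles are single mice, and lines join group means with bars of 1 SD (n = 3). Hspa5 peaks at 8 h near 1070 TPM, Sdf2l1 climbs to between 129 and 158 TPM at 24 h, Dnajc3 and Edem1 drop by 4 h, and Dnajb9 drops between 8 and 24 h.

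Of the 4 protein disulfide isomerases, 3 rose over 24 h in each genotype. P4hb, the main isomerase of the lumen, and Pdia6 rose from the start, and Pdia3 and Pdia4 first fell and then recovered. P4hb was at 222, 223 and 211 TPM (0 h), 334, 348 and 348 (4 h), 436, 488 and 482 (8 h) and 439, 422 and 401 (24 h) in cKO mice. WT mice had P4hb at 210, 214 and 216 TPM (0 h), 385, 366 and 322 (4 h), 434, 492 and 476 (8 h) and 401, 424 and 389 (24 h). Libraries of 0, 4 and 8 h did not overlap in either genotype. The rise from 0 to 4 h was 1.66-fold in cKO and 1.79-fold in WT. Pdia3, which works with the lectins and in the loading of MHC class I, was at 315, 322 and 257 TPM (0 h), 209, 198 and 190 (4 h), 268, 278 and 263 (8 h) and 351, 336 and 326 (24 h) in cKO mice. WT mice had Pdia3 at 249, 273 and 290 TPM (0 h), 181, 172 and 168 (4 h), 237, 239 and 254 (8 h) and 329, 322 and 328 (24 h). The 4 h libraries lay below those of all other times and the 24 h libraries above them. Pdia3 fell from 0 to 4 h (log2 fold change -0.50, SE 0.09, adjusted p = 1.95e-05 in cKO and log2 fold change -0.54, SE 0.09, adjusted p = 4.76e-06 in WT). It rose at both later steps, the last of which was not called without mouse 1 in cKO (adjusted p = 0.089) or without mouse 4 in WT (adjusted p = 0.0593). Pdia4 fell and rose alike (log2 fold change -0.53, SE 0.10, adjusted p = 2.93e-05 in cKO and log2 fold change -0.65, SE 0.10, adjusted p = 1.52e-06 in WT at the first step) and was not called at 24 against 0 h, although 7 of 16 alternatives, among them DESeq2 and the fit without mouse 3, called it higher in WT (adjusted p from 0.00406 to 0.0495). Pdia6 ended 2.48-fold higher than at 0 h in cKO and 2.67-fold higher in WT.

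The lectin chaperones Canx (calnexin, in the membrane) and Calr (calreticulin, in the lumen) hold glycoproteins during folding, and both rose over 24 h. Canx was at 153, 155 and 122 TPM (0 h), 205, 222 and 233 (4 h), 254, 271 and 279 (8 h) and 247, 249 and 250 (24 h) in cKO mice. WT mice had Canx at 121, 135 and 141 TPM (0 h), 227, 212 and 179 (4 h), 293, 237 and 288 (8 h) and 254, 228 and 239 (24 h). All later libraries lay above those of 0 h, and all 8 h libraries above those of 4 h. Most of the change lay in the first 4 h (1.63-fold in cKO and 1.67-fold in WT), while Calr ended 1.59-fold and 1.58-fold higher in cKO and WT. Creld2 and Manf, secreted proteins of the stressed ER, also rose. Creld2 was at 43.7, 48.6 and 48.9 TPM (0 h), 70.9, 52.9 and 54.1 (4 h), 104, 138 and 110 (8 h) and 141, 131 and 99.1 (24 h) in cKO mice. WT mice had Creld2 at 41.6, 40.8 and 44.3 TPM (0 h), 66.6, 60.3 and 62.1 (4 h), 106, 108 and 118 (8 h) and 109, 109 and 104 (24 h). In both genotypes 0 h libraries were lowest, 4 h libraries next, and those of 8 and 24 h overlapped above them. Its step from 4 to 8 h was the second largest of the rises called in WT at that step among members with a mean of at least 10 TPM (log2 fold change 0.87, SE 0.13, adjusted p = 1.41e-06, beside log2 fold change 1.03, SE 0.13, adjusted p = 8.01e-08 in cKO). Manf ended 1.82-fold higher in cKO and 1.96-fold higher in WT. The gene body of Manf overlaps that of Rbm15b on the same strand (4.79 to 13 TPM), so reads shared by both could count for either.

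Of the 4 members of ER-associated degradation, Herpud1 rose over 24 h and Edem1, Sel1l and Syvn1 fell, in both genotypes. The fall of Sel1l was lost in cKO without mouse 2, without mouse 3 or with no filter on low counts (adjusted p up to 0.192) and in WT with no filter (adjusted p = 0.0515). Syvn1 encodes the ubiquitin ligase HRD1 of the ER membrane and Sel1l its adaptor. Syvn1 was at 9.04, 10.8 and 10.6 TPM (0 h), 11.5, 11.1 and 12.3 (4 h), 9.94, 11.2 and 10.9 (8 h) and 5.62, 5.61 and 5.02 (24 h) in cKO mice. WT mice had Syvn1 at 9.04, 9.13 and 11.1 TPM (0 h), 11, 13.5 and 13.4 (4 h), 8.4, 9.76 and 8.51 (8 h) and 4.9, 5.2 and 5.05 (24 h). All 24 h libraries lay below all others, at 0.56 times the 0 h level in cKO (log2 fold change -0.84, SE 0.15, adjusted p = 5.1e-06) and 0.52 times in WT (log2 fold change -0.94, SE 0.15, adjusted p = 8.85e-07). Its gene body overlaps Mrpl49 on the other strand by 91 bases (28.8 to 73.6 TPM), and whether counting used strand is not given in the sources used here. Edem1, which extracts mannose-trimmed glycoproteins for degradation, was at 22.4, 28 and 28.4 TPM (0 h), 13.6, 16.3 and 17.2 (4 h), 17.3, 12.2 and 14 (8 h) and 16.5, 18.5 and 16.6 (24 h) in cKO mice. WT mice had Edem1 at 25.1, 28.6 and 25.9 TPM (0 h), 16, 15.3 and 14.4 (4 h), 14.9, 8.07 and 11.8 (8 h) and 16.3, 16.3 and 15.2 (24 h). All 0 h libraries lay above all later ones, and the lowest value was that of mouse 5 at 8 h. Edem1 fell in the first 4 h (log2 fold change -0.65, SE 0.12, adjusted p = 2.6e-05 in cKO and log2 fold change -0.70, SE 0.12, adjusted p = 9.27e-06 in WT). Herpud1, which recruits and organises the HRD1 complex, was at 74.8, 82.5 and 81.5 TPM (0 h), 64.3, 65 and 79.2 (4 h), 74.2, 77.5 and 71.7 (8 h) and 108, 133 and 124 (24 h) in cKO mice. WT mice had Herpud1 at 85.7, 90.8 and 96 TPM (0 h), 70.4, 67.9 and 61.9 (4 h), 57, 57.2 and 61 (8 h) and 119, 118 and 115 (24 h). All 24 h libraries lay above all others. Herpud1 rose from 8 to 24 h 1.58-fold in cKO (log2 fold change 0.66, SE 0.10, adjusted p = 5.37e-07) and 1.87-fold in WT (log2 fold change 0.90, SE 0.10, adjusted p = 1.13e-09).

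Of the 5 genes of the Sec61 channel and its partners, 2 rose and 2 fell over 24 h in cKO, and 2 rose and 1 fell in WT. Sec61a1 encodes the pore, Sec61b and Sec61g its small subunits, and Sec62 and Sec63 the accessory proteins that help short and late-delivered chains and, for Sec63, bring BiP to the channel. Sec61a1 was at 154, 141 and 140 TPM (0 h), 200, 226 and 222 (4 h), 215, 249 and 219 (8 h) and 213, 206 and 190 (24 h) in cKO mice. WT mice had Sec61a1 at 136, 122 and 138 TPM (0 h), 206, 217 and 198 (4 h), 222, 218 and 230 (8 h) and 192, 201 and 202 (24 h). All later libraries lay above those of 0 h. Sec61a1 rose in the first 4 h (log2 fold change 0.66, SE 0.09, adjusted p = 7.21e-08 in cKO and log2 fold change 0.75, SE 0.09, adjusted p = 6.02e-09 in WT). Sec61g was 1.73-fold and 1.6-fold higher at 24 h than at 0 h in cKO and WT, and Sec61b was not called over that span (log2 fold change 0.09 in cKO and 0.10 in WT, and in WT called with no filter and without mouse 3, with adjusted p = 0.0292 and 0.0387). Sec62 was at 29.9, 34.4 and 32.4 TPM (0 h), 33.9, 35.8 and 30.4 (4 h), 27.8, 29.4 and 33 (8 h) and 19.4, 19.6 and 16.8 (24 h) in cKO mice. WT mice had Sec62 at 30.6, 34.4 and 35.8 TPM (0 h), 35.8, 34.1 and 35.3 (4 h), 26.8, 30.9 and 30.1 (8 h) and 18.2, 16.4 and 18.2 (24 h). All 24 h libraries lay below all others (log2 fold change -0.74, SE 0.11, adjusted p = 5.87e-07 in cKO and log2 fold change -0.85, SE 0.11, adjusted p = 3.55e-08 in WT from 8 to 24 h). Sec63 also fell at that step in both genotypes, with 8 of 16 alternatives, among them the fits without mouse 3 or mouse 4, not calling it in WT (adjusted p up to 0.384). At 24 against 0 h it was the 1 member called in cKO alone (log2 fold change -0.44, SE 0.16, adjusted p = 0.0152 and up to 0.111 without mouse 1, without mouse 3 or with DESeq2, beside log2 fold change -0.23, SE 0.16, adjusted p = 0.2 in WT). The difference between these changes was not called when tested itself.

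Ssr1, Ssr2, Ssr3 and Ssr4, which encode the translocon-associated protein complex beside the channel, all rose over 24 h in both genotypes. Ssr1 was at 28.8, 30.5 and 26.6 TPM (0 h), 42, 48.7 and 46.4 (4 h), 50.4, 54.8 and 58.5 (8 h) and 52.7, 50.8 and 51.1 (24 h) in cKO mice. WT mice had Ssr1 at 25.1, 26.9 and 26.7 TPM (0 h), 50, 44 and 44.1 (4 h), 60.5, 60.6 and 58 (8 h) and 53.8, 49.7 and 52.4 (24 h). All later libraries lay above those of 0 h. The rise of Ssr1 over 24 h was 1.9-fold in cKO and 2.05-fold in WT. That of Ssr2 was 1.95-fold and 1.94-fold, in the same order, that of Ssr4 1.81-fold and 1.8-fold, and that of Ssr3 1.19-fold and 1.29-fold. Of the noncatalytic subunits of signal peptidase, Spcs3 rose and the other 2 were not called over 24 h. Spcs3 was at 58.5, 57.4 and 48.5 TPM (0 h), 62.9, 68.3 and 67.8 (4 h), 87.4, 92.6 and 99.8 (8 h) and 102, 106 and 104 (24 h) in cKO mice. WT mice had Spcs3 at 54.3, 49.4 and 51.7 TPM (0 h), 66.8, 55.8 and 54.5 (4 h), 94.8, 69.1 and 90 (8 h) and 98.8, 96.8 and 94 (24 h). In cKO every time lay above the one before, and in WT every time but the last did. Spcs3 ended 2.01-fold higher in cKO (log2 fold change 1.01, SE 0.10, adjusted p = 6.57e-12) and 1.93-fold higher in WT (log2 fold change 0.95, SE 0.10, adjusted p = 3.61e-11). The log2 fold change of Spcs1 was 0.08 in cKO mice and 0.19 in WT mice, while Spcs2 had -0.00 (cKO) and 0.04 (WT). In WT 9 of 16 alternatives called Spcs1 higher (adjusted p from 0.00288 to 0.0474), among them DESeq2, the fit without mouse 3 and both fits without the libraries that stood apart.

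Set against the promoter elements shown above, 8 of the 10 members with an ERSE or ERSE-II rose over 24 h and 2, Dnajc3 and Syvn1, fell, in each genotype. Their median log2 fold change was 0.86 in cKO and 0.96 in WT. Over all genes tested 37.3% rose and 39% fell in cKO (median -0.07), and 36.9% rose and 40.1% fell in WT (median -0.08). Only exact matches were counted, so a window without a match may still hold a variant of an element. Of the 18 members whose window held no exact match to either, 8 rose and 5 fell in cKO (median 0.11) and 8 rose and 4 fell in WT (median 0.19). These included Sdf2l1 and Xbp1, which rose, and Dnajb9, Edem1 and Sec62, which fell. The 6 members with no window matched all rose in both genotypes, so the split by element covers 28 of the 34 genes and was not tested.

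Further genes of the same pathways were read from a list of 143 symbols, older and newer names of some genes included, of which 133 were in the files and 129 were tested. Over 24 h 62 rose and 26 fell in cKO and 64 rose and 31 fell in WT, when 37.3% of all genes rose and 39% fell in cKO, and 36.9% rose and 40.1% fell in WT. Their median log2 fold change was 0.23 in cKO and 0.26 in WT, beside -0.07 and -0.08 over all genes. In the group for targeting and translocation 17 of 25 rose and 1 fell in cKO, and 16 rose and 1 fell in WT. In the group for sensors, factors and feedback of the response 3 of 13 rose and 6 fell in cKO, and 3 rose and 7 fell in WT. Of 24 other folding enzymes and cochaperones 12 rose and 3 fell in cKO, and 12 rose and 4 fell in WT. Of 20 glycosylation genes 12 rose and 5 fell in cKO, and 12 rose and 6 fell in WT. Of 23 further genes of ER-associated degradation 8 rose and 7 fell in cKO, and 10 rose and 8 fell in WT. Of 24 genes of the COPII and COPI coats and cargo receptors, which carry proteins between the ER and the Golgi, 10 rose and 4 fell in cKO, and 11 rose and 5 fell in WT. Ppp1r15a, which directs the phosphatase that reverses PERK's block on translation, averaged 151 ± 19.5, 110 ± 9.96, 55.3 ± 4.89 and 19.3 ± 0.548 TPM among cKO libraries at 0, 4, 8 and 24 h and 140 ± 8.45, 120 ± 6.67, 60.1 ± 2.37 and 18.8 ± 0.424 TPM among WT libraries. Its fall over 24 h came to a log2 fold change of -2.89 with an SE of 0.10 (adjusted p = 1.6e-24) in cKO and -2.85 with an SE of 0.10 (adjusted p = 2.37e-24) in WT. Atf4, the factor translated when that block is on, averaged 138 ± 9.26, 216 ± 8.29, 277 ± 22.6 and 375 ± 23.1 TPM among cKO libraries and 124 ± 3.32, 210 ± 9.82, 272 ± 22.5 and 370 ± 13.6 TPM among WT libraries at the same times. Trib3, a target and inhibitor of ATF4, averaged 1.31 ± 0.504, 2.34 ± 0.648, 3.97 ± 0.722 and 32.4 ± 6.37 TPM among cKO libraries and 1.28 ± 1.29, 2.88 ± 0.745, 3.09 ± 0.307 and 30.6 ± 2.65 TPM among WT libraries. Both rose over 24 h. For Atf4 the log2 fold change was 1.52 with an SE of 0.10 (adjusted p = 2.12e-16) in cKO and 1.63 with an SE of 0.10 (adjusted p = 3.84e-17) in WT. For Trib3 it was 4.66 with an SE of 0.31 (adjusted p = 3.93e-15) in cKO and 4.51 with an SE of 0.31 (adjusted p = 1.59e-14) in WT.

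Among the other folding enzymes, Ero1l, the oxidase that recharges the disulfide isomerases, rose within 4 h: it averaged 8.9 ± 1.5, 27.9 ± 6.47, 37.2 ± 4.79 and 41.4 ± 1.24 TPM among cKO libraries at 0, 4, 8 and 24 h and 8.47 ± 0.24, 30.5 ± 1.77, 35.1 ± 6.59 and 40.8 ± 3.3 TPM among WT libraries. Prdx4, the peroxiredoxin of the ER, rose after 8 h and was not called at the earlier steps: it averaged 6.45 ± 1.54, 4.61 ± 2.57, 5.23 ± 1.16 and 50 ± 3.75 TPM among cKO libraries and 5.19 ± 2.17, 3.79 ± 1.26, 5.71 ± 2.48 and 61.4 ± 0.385 TPM among WT libraries, with a log2 fold change from 8 to 24 h of 3.21 with an SE of 0.28 (adjusted p = 4e-12) in cKO and 3.31 with an SE of 0.27 (adjusted p = 7.22e-13) in WT. Sec11c, a catalytic subunit of signal peptidase, fell and returned, with 337 ± 21.7, 141 ± 9.57, 109 ± 8.48 and 313 ± 7.04 TPM among cKO libraries and 302 ± 16.6, 137 ± 10.7, 81 ± 9.18 and 284 ± 5.72 TPM among WT libraries. The transport genes Lman1, a cargo receptor for glycoproteins, and Ergic1, a protein of the compartment between the ER and the Golgi, rose over 24 h: Lman1 averaged 11.7 ± 1, 16.4 ± 1.85, 31.3 ± 1.7 and 49.8 ± 1.54 TPM among cKO libraries and 12.5 ± 0.104, 15.4 ± 1.5, 32.3 ± 3.6 and 48.1 ± 3.09 TPM among WT libraries, and Ergic1 7.04 ± 1.24, 14.4 ± 0.727, 35.8 ± 2.16 and 63.6 ± 3.28 TPM among cKO libraries and 9.61 ± 0.763, 13.3 ± 0.544, 35.9 ± 3.14 and 63 ± 2.31 TPM among WT libraries. Stt3a, the oligosaccharyltransferase subunit that glycosylates chains as they enter, averaged 122 ± 16.9, 221 ± 12.7, 276 ± 14.6 and 215 ± 10.7 TPM among cKO libraries and 109 ± 4.07, 227 ± 13.6, 277 ± 18.5 and 206 ± 11.2 TPM among WT libraries. It rose at the first 2 steps and fell at the third in each genotype.

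The comparison of cKO with WT at each time asks whether these genes depend on the labelled loss of Tcf7. No member was called by edgeR at 0, 4, 8 or 24 h, when 0.445, 0.82, 0.183 and 0.105% of all genes were called. At an unadjusted p under 0.05 there were 3, 1, 4 and 0 members, and DESeq2 called none either. That is 8.82, 2.94, 11.8 and 0% of the members, beside 7.37, 11.8, 9.93 and 3.68% of all genes, so the members' share lay near or below that of all genes. They were Atf6, Dnajb9 and Herpud1 at 0 h (all lower in cKO than in WT), Dnajb11 at 4 h (lower), and Atf6 and Ssr1 (lower) and Edem1 and Herpud1 (higher) at 8 h. The median absolute log2 difference of the members was 0.09, 0.10, 0.08 and 0.05 at the 4 times, beside 0.13, 0.16, 0.16 and 0.10 over all genes tested. The members were not matched with other genes for level, so these medians do not show a smaller effect on the members. The difference was above 0 for 61.8, 38.2, 52.9 and 82.4% of the members at the 4 times. Over all genes that share was 49, 49.5, 45 and 52.1%, and the excess of positive differences at 24 h was not tested. The data bound most differences: the 95% interval lay within 2-fold in both directions for 32, 31, 31 and 33 of the 34 members, and within 1.5-fold for 30, 29, 28 and 29. Ern1 at every time, Xbp1 at 0, 4 and 8 h and Dnajb11 at 4 and 8 h had intervals reaching past 2-fold, so for them larger differences are not bounded.

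**Figure D5:**
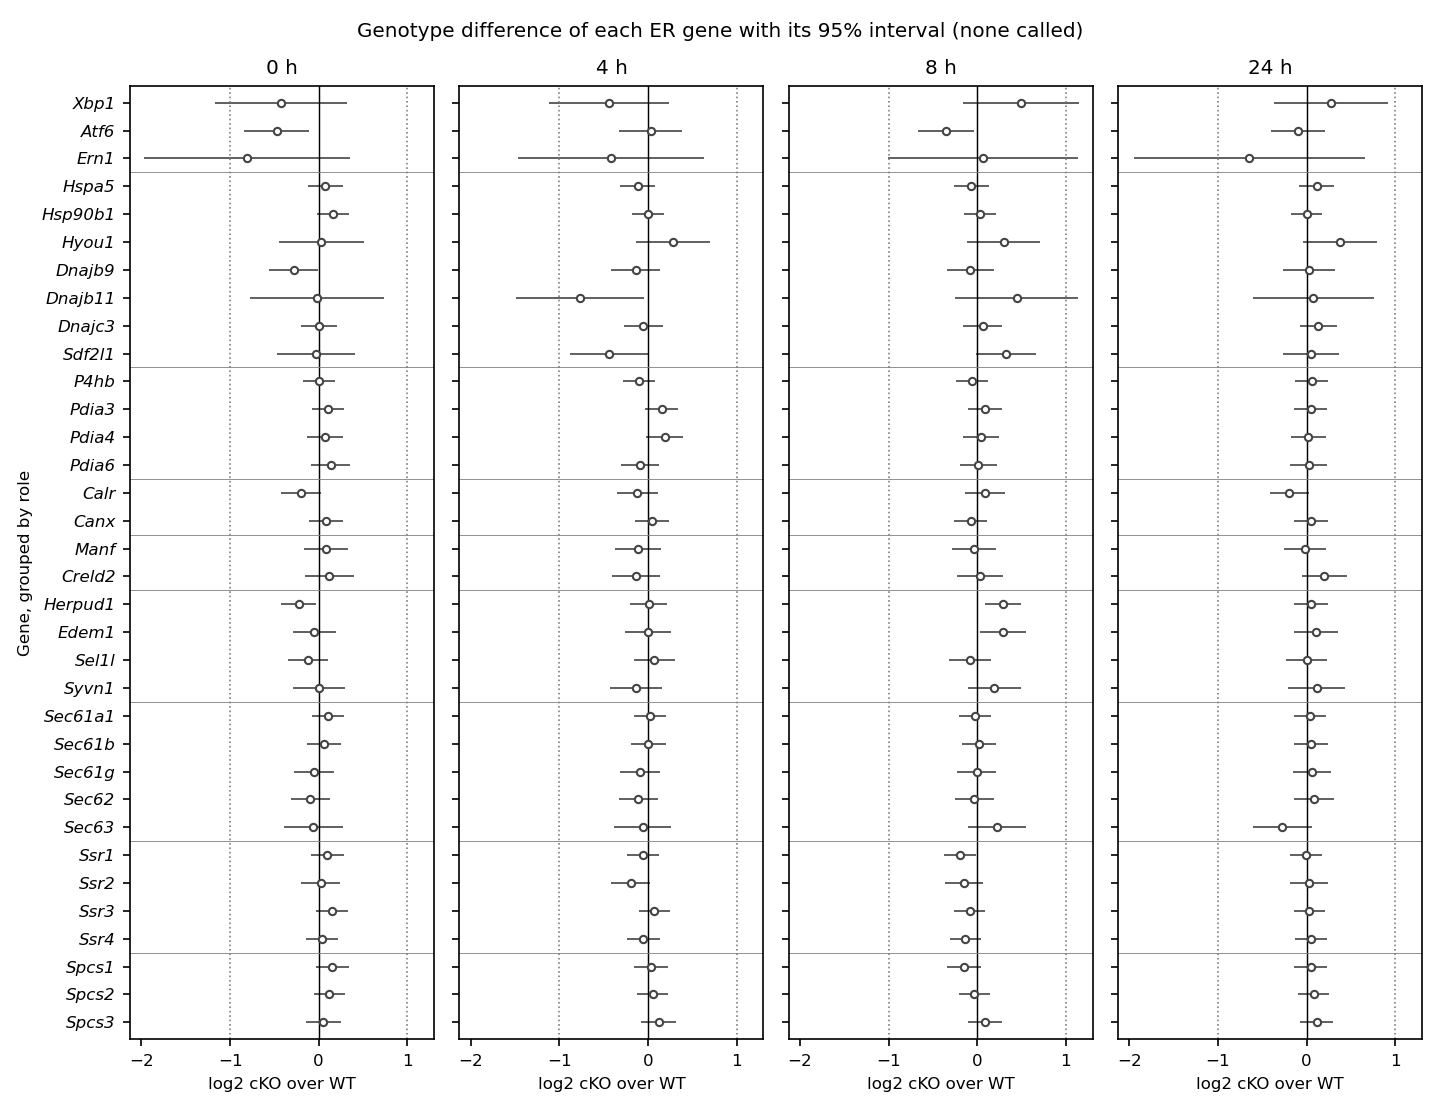
Log2 difference of cKO over WT for each gene at 0, 4, 8 and 24 h, with its 95% interval and dotted lines at 2-fold. No difference was called at an adjusted p under 0.05. Intervals are widest for Ern1, Xbp1 and Dnajb11.

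The members with the smallest p at each time were Atf6 at 0 h, Dnajb11 at 4 h, Herpud1 at 8 h and Hyou1 at 24 h. At 0 h all cKO libraries held less Atf6 than all WT libraries (mean 1.59 ± 0.19 TPM for cKO against 2.17 ± 0.22 TPM for WT, SD, n = 3 each), the log2 difference being -0.48 (SE 0.18, adjusted p = 0.424). At 4 h Dnajb11 differed by -0.77 (SE 0.34, adjusted p = 0.378) with overlapping libraries, and the low 4 h library of mouse 3 is among the cKO values. At 8 h all cKO libraries held more Herpud1 than all WT libraries (mean 74.5 TPM for cKO against 58.4 TPM for WT), with a log2 difference of 0.29 (SE 0.10, adjusted p = 0.288). At 24 h Hyou1 averaged 11.0 TPM in cKO and 8.46 TPM in WT without overlap (log2 difference 0.38, SE 0.20, adjusted p = 1). Libraries did not overlap for 2 higher and 2 lower members at 0 h, 1 and 2 at 4 h, 3 and 2 at 8 h, and 8 and 1 at 24 h. Over all genes that share was 6.9% higher and 6.6% lower at 0 h, 7.87% and 8.07% at 4 h, 5.28% and 5.24% at 8 h, and 7.53% and 5.92% at 24 h. The 8 higher members at 24 h were Dnajc3, Edem1, Hspa5, Hyou1, Pdia3, Spcs2, Spcs3 and Xbp1, with log2 differences between 0.05 and 0.38. In the TPM given above, the Pdia3 libraries of 24 h did overlap. For Hspa5 the lowest cKO and highest WT values of 24 h were equal as rounded.

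The difference between the genotypes in each change was tested as well (the cKO change minus the WT change). No member was called by edgeR for the steps from 0 to 4, 4 to 8 or 8 to 24 h or for 24 against 0 h, when 0.00872, 0.061, 0.00872 and 0.0174% of all genes were called, and 0, 2, 1 and 0 members had an unadjusted p under 0.05. That is 0, 5.88, 2.94 and 0% of the members, beside 7.13, 8.52, 4.44 and 4.3% of all genes. For the step from 4 to 8 h these were Sdf2l1 (difference of log2 changes 0.76, SE 0.27, adjusted p = 0.326) and Dnajb11 (1.21, SE 0.47, adjusted p = 0.434), and for the step from 8 to 24 h it was Sec63 (-0.49, SE 0.23, adjusted p = 0.972). Of the members called in at least 1 genotype, 22 were higher in both and 6 lower in both at 24 against 0 h, which is 96.6% of the cKO and 100% of the WT calls, beside 93.2% and 92.4% over all genes. For the step from 4 to 8 h 17 were higher in both, 5 were called in cKO alone and 5 in WT alone, and none was called in opposite directions. Those called alike made up 77.3% of the members called in cKO and 77.3% of those called in WT, near the shares over all genes (75.6% and 73.4%). At the step from 0 to 4 h 13 were higher and 4 lower in both, and from 8 to 24 h 4 were higher and 7 lower in both. From 0 to 4 h those called alike were 85% of the cKO and 77.3% of the WT calls, beside 85.3% and 82.6% over all genes. From 8 to 24 h they were 84.6% and 61.1%, beside 84.7% and 82.6%. A call in 1 genotype alone is not a difference between them, since the test of that difference passed for none.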

How the data were processed

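Smart-seq2 RNA-seq of 24 libraries of mouse CD8+ T cells was used. The submitters' processing notes name STAR, RSEM, DESeq2 and the build mm10, without versions. The expected counts, TPM and FPKM per gene were deposited by the authors, per the file headers, for 23420 genes. FPKM values deposited by the authors were not used. TPM gave levels, as mean and SD over 3 mice. Expected counts were rounded and tested with edgeR 4.0.16 (limma 3.58.1, R 4.3.3): filterByExpr over the 8 groups, TMM scaling, 1 group mean per genotype and time, robust quasi-likelihood F test, two-sided, Benjamini-Hochberg adjustment over 11470 genes within each of 16 comparisons. SE is the log2 fold change divided by the root of F, and 95% intervals use the t distribution.

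The 34 members and all other lists were chosen with earlier results of these data known. Values in every library are given for Hspa5, the sensors, the 2 largest called rises and falls of each WT step (mean of at least 10 TPM), the member with the smallest p between genotypes at each time, and up to 2 further members per role. Other genes of the pathway are those with the smallest adjusted p in a comparison, up to 4 each. Promoter windows are RefSeq's on GRCm38.p6, and gene positions are from the GENCODE annotation of GRCm38. Protein sequences were not used here.

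The depth of 5846265 to 9700397 expected counts limits Ern1 most (2 to 27 counts per library). Numbers pair the libraries because each mouse was sampled at each time, per the labels. The deviations of libraries of the same mouse from their group means had a median correlation of 0.054 in cKO (18 pairs, -0.038 to 0.163) and 0.0048 in WT (-0.085 to 0.059), beside -0.028 and 0.0038 for different mice. Tests were made without a mouse block, and the fit with it is an alternative. Alternatives were DESeq2 1.42.0, 2 other scalings, 2 other filters, removal of Rn45s, fits of the compared groups alone, the mouse block, and leaving out each mouse or the libraries that stood apart.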

Additional observations from a re-analysis of the deposited data

How the results depend on the processing

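Each comparison was repeated under 16 alternatives (15 between genotypes, where mouse and genotype leave no block to fit), and no called change turned round in any of them. Of the counts of members called, 2 changed side: with only the compared groups fitted, 1 member, Xbp1, was called higher in cKO than in WT at 24 h (adjusted p = 0.0338), and with no filter on low counts 1 member, Sdf2l1, was called for the cKO minus WT difference in the change from 4 to 8 h (adjusted p = 0.0427). The fit of all 8 groups with the filter called 0 in both, and the cause was not tested. Leaving out 1 mouse at a time gave 0 called members between genotypes at each time and 0 for each difference of changes. It gave 17 to 20, 17 to 22, 9 to 14 and 27 to 29 in cKO for 4 over 0 h, 8 over 4 h, 24 over 8 h and 24 over 0 h, and 18 to 22, 15 to 23, 12 to 18 and 28 to 31 in WT.

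With mouse as a replicate block, which the pairing of libraries by mouse allows, 20, 23, 13 and 29 members were called in cKO for the same comparisons, and 23, 22, 18 and 28 in WT, with 0 for each difference of changes. The block added Calr in cKO for 8 over 4 h (adjusted p = 0.0348) and in WT for 4 over 0 h (adjusted p = 0.0163) and changed no other call. Of the calls, 14 of 20, 14 of 22, 7 of 13 and 27 of 29 in cKO, and 16 of 22, 13 of 22, 7 of 18 and 27 of 28 in WT, were kept under every alternative, so the calls over 24 h are the firmest and those from 8 to 24 h the least firm. Counts are limited by depth for Ern1, and could be affected by the overlap of gene bodies for Manf and Syvn1. On the other strand, Hsp90b1 also overlaps 1810014B01Rik (4598 bases, 2.77 to 17.1 TPM) and Spcs1 overlaps Glt8d1 (273 bases, 0.98 to 5.24 TPM). The remaining genes that overlap a member reached at most 0.98 TPM.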
